A study of Mus musculus with 20 samples.

Results

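Preleptotene spermatocytes were compared with undifferentiated spermatogonia through the m6A peaks of both stages. Peaks on the same RefSeq transcript that shared at least 1 nt were paired, which gave 16359 pairs on 6662 genes. They took in 14583 of the 18749 preleptotene peaks and 15051 of the 23031 undifferentiated peaks, out of 84778 peaks in the series. The series mapped m6A in male germ cells of wild-type mice at 5 stages. Both stages compared here came from C57BL/6 mice, with no other allele or treatment in the labels and no age given for these libraries. Polyadenylated RNA was sheared and immunoprecipitated with an anti-m6A antibody, and each stage had 2 immunoprecipitated and 2 input libraries. These 8 libraries held 9622068 to 15758318 mapped reads, with 92.8% to 97.1% of reads mapped. Nothing in the labels ties the replicates to different animals. The p-values therefore reflect the spread among these libraries alone, and that spread may be technical.

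N6-methyladenosine (m6A) is a methyl mark on adenosines inside mRNA. The Mettl3 and Mettl14 methyltransferase lays it down, Alkbh5 and Fto can remove it, and readers of the YTH family bind it and change the stability or translation of the transcript. Undifferentiated spermatogonia are the mitotic cells that hold the stem cell pool, maintained by GDNF and FGF signals from the niche. Preleptotene spermatocytes are in the S phase before meiosis, after retinoic acid has switched on Stra8 and the meiotic programme. The values given here are log2 enrichments of immunoprecipitate over input, as deposited for each replicate (R1 and R2). A difference is preleptotene minus undifferentiated, after each column was centred on its median over the pairs.

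The labels were first set against marker genes, counting a gene as marked when it had at least 1 peak. In all, 7467 genes were marked in preleptotene and 9088 in undifferentiated spermatogonia, the counts to set beside those of the markers. Of 17 genes of the synaptonemal complex and chromosome axis, 15 were marked in preleptotene and 9 in undifferentiated spermatogonia. Of 40 genes of undifferentiated spermatogonia, 13 and 33 were marked. The undifferentiated table also held markers of somatic testis cells. Of 74 markers (26 of Sertoli cells, 30 of Leydig, peritubular and endothelial cells, 18 of blood cells and macrophages), 50 were marked there and 13 in preleptotene. The mean log2 enrichment of their strongest peaks was 3.37 (R1) and 3.76 (R2) in undifferentiated spermatogonia and 3.77 and 3.33 in preleptotene. In preleptotene 8 of the 26 Sertoli markers and 5 of the 30 Leydig, peritubular and endothelial markers had a peak. Clu, Cldn11, Aard and Tjp1 of the first list and Pdgfra, Col3a1, Fn1 and Star of the second were marked at both stages. Sox9, Gata4 and Kitl of Sertoli cells, Cdh5 of endothelium and Csf1r, C1qc and Ptprc of blood and macrophages had no peak in preleptotene. None of the 18 blood and macrophage markers had one, against 11 in the undifferentiated table. The part of somatic RNA in the results that follow was not tested. In bulk samples, fewer cells of a type and less RNA per cell cannot be told apart.

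Most paired sites carried a similar enrichment at both stages. Pairs exist only where both stages had a listed peak, which leaves out 4166 preleptotene and 7980 undifferentiated peaks. The difference lay within 0.5 of 0 in 10464 pairs (64.0%), exceeded 1 in 949 and fell under -1 in 923. The median log2 enrichment was 3.11 (R1) and 3.13 (R2) in preleptotene and 3.01 and 3.51 in undifferentiated spermatogonia, and centring removed an offset of -0.14 between the stages. Replicates correlated across pairs at r of 0.852 in preleptotene and 0.869 in undifferentiated spermatogonia, and columns of different stages at 0.697 to 0.736. The pairs are not independent replicates. With limma and Benjamini-Hochberg adjustment over all pairs, 1049 pairs (6.41%) passed an adjusted p of 0.05 and are named called here. Of these, 524 (3.20%) on 419 genes were higher in preleptotene and 525 (3.21%) on 448 genes were lower. Without centring the split was 317 higher and 596 lower. The smallest called difference was 1.15 in size and the median one 1.55. Without preleptotene R1 or R2, 513 and 381 pairs were called, and without undifferentiated R1 or R2, 362 and 429.

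Some peaks paired by this rule barely touch, and their limits then cover different stretches of the transcript. Among 13484 pairs that shared at least 50% of both peaks, 4.62% were called, against 14.8% of the other 2875. The 622 pairs sharing 1 to 10 nt had a median absolute difference of 0.72, against 0.35 over all pairs, and 224 unpaired preleptotene peaks lay within 9 nt of an undifferentiated peak. The preleptotene table allows a second measure, because its deposited ratio gives the undifferentiated enrichment within the preleptotene peak's own limits. On this shared interval the median absolute difference of the 622 pairs was 0.35. Of all pairs, 458 (2.80%) were called in the same direction by both measures, 237 higher (1.45%, 173 genes) and 221 lower (1.35%, 195 genes). Of these 458, 119 also passed whichever of the 4 columns was left out. For pairs, here and below, a column was left out only from the fit of the listed values, not from that on the shared interval. The 2 measures use the same preleptotene values. Over pairs sharing at least 50% of both peaks, their undifferentiated values correlated at r of 0.987 (R1) and 0.988 (R2). The second measure thus screens for unlike peak limits and is not a separate measurement. Unless stated otherwise, pairs described below as higher or lower were called by both measures.

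**Figure D1:**
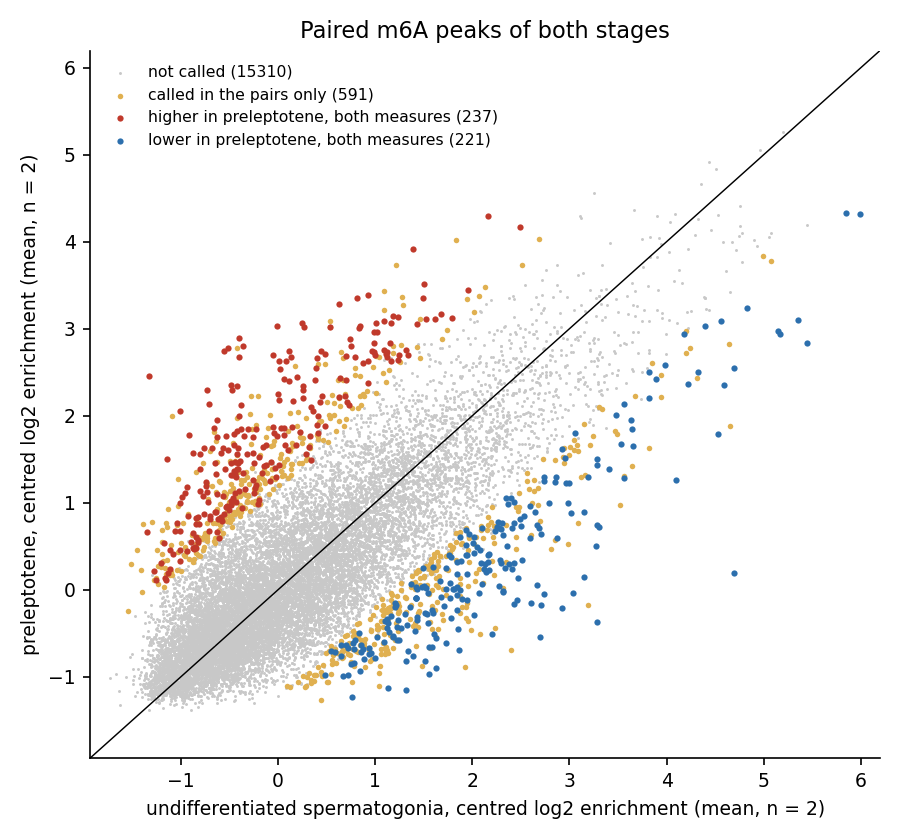
Mean centred log2 enrichment (n = 2) of each of the 16359 pairs in undifferentiated spermatogonia (x axis) and preleptotene spermatocytes (y axis), with the line of equal values. Grey points were not called, yellow points were called only in the pairs as listed, and red (237) and blue (221) points were called higher and lower by both measures.

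Sequence could be shown for peaks at the first bases of a transcript, where RefSeq's table of gene starts (GRCm38.p6) holds 50 transcribed bases. Both peaks started within the first 21 nt in 417 pairs, of which 54 were called, 34 of them by both measures. For 302 genes of these pairs the table holds 1 start. The letters GGAC, a core form of the motif that the methyltransferase prefers, occurred in the 50 bases of 72 of the 302 genes (23.8%) and of 19.0% of all 22862 genes with 1 start. On the opposite strand the shares were 18.9% and 17.0%. Of 23 pairs called by both measures on such genes, 6 held GGAC. They are printed 5′ to 3′ on the transcribed strand with GGAC in capitals, to show what lay under 5′ end peaks that differed. Whether the deposited transcript models start at the same base was not checked, and a match is not a measured site.
Exosc3 (chr4:45320567-45320596, minus strand): ctgccatggctgaagtactgtccgcgGGAC
Snx4 (chr16:33251465-33251494, plus strand): agcaggcacctccGGACcccgagaagctct
Ybx1 (chr4:119294464-119294493, minus strand): tcggtagcgggagcggagagcGGACcccag
Pkn3 (chr2:30078698-30078727, plus strand): agttaaggcaGGACgatcaacctagctgag
Rpe (chr1:66700834-66700863, plus strand): gcgcgcccaatcgGGACggagtcttggctg
Nabp1 (chr1:51478370-51478399, minus strand): agttgctgcttgGGACgcgggctgcgcggt

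The 5′ end peaks of the first 3 of these genes were lower in preleptotene. Ybx1, encoding an mRNA-binding protein, stood at 6.72 and 6.00 in preleptotene and at 7.76 and 8.41 in undifferentiated spermatogonia (difference -1.58 ± 0.35 SE, limma adjusted p = 0.0180). Exosc3, a subunit of the RNA exosome, stood at 3.81 and 3.12 against 5.63 and 5.91 (difference -2.16). Snx4, a sorting nexin, gave a difference of -1.85. The other 3 were higher, with differences of 1.97 at Nabp1, encoding a single-stranded DNA binding protein, 1.71 at Rpe, an enzyme of the pentose phosphate pathway, and 1.42 at the protein kinase gene Pkn3. Nabp1 stood at 6.12 and 6.03 against 3.72 and 4.78, with both preleptotene values above both undifferentiated ones. Sites holding the same letters thus lay on both sides of the comparison. Among all 417 pairs at the first bases the SD of the differences was 0.84, against 0.65 over all pairs, and 12.9% were called in the pairs as listed, against 6.41%.

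Of the 10 highest differences, 1 pair a gene, 4 lay in the 5′ UTR, 3 at the start codon and 3 in the coding sequence by the undifferentiated labels. Slc22a21, a carnitine and cation transporter gene, led at the start codon, with 5.94 and 5.21 in preleptotene against 2.22 and 1.64 (difference 3.78 ± 0.41 SE, adjusted p = 0.000592). Meioc (chromosome 11, 102665351 to 102682240, RefSeq on GRCm38.p6), which with Ythdc2 lets germ cells leave the mitotic cycle and proceed through meiotic prophase, stood at 6.30 and 5.50 against 2.91 and 2.58 (difference 3.29 ± 0.39 SE, adjusted p = 0.000777). Both preleptotene values lay far above both undifferentiated ones, and the difference on the shared interval was 3.38. Mybl1 (chromosome 1, 9667407 to 9700439), the transcription factor that activates pachytene genes, stood at 5.07 and 5.76 in the 5′ UTR against 2.62 and 2.44 (difference 3.03 ± 0.37 SE, adjusted p = 0.000975). Dip2c (3.29), Eml5 (3.15), a microtubule-associated protein gene, and Pdlim5 (3.06), a cytoskeletal PDZ and LIM protein gene, gave their differences in the 5′ UTR. Asb1 (3.29), a SOCS box protein gene, and Hectd2 (3.04), a ubiquitin ligase gene, gave theirs in the coding sequence. These 8 were called by both measures. Eml5, with preleptotene values of 6.97 and 4.87, did not pass without undifferentiated R2 (adjusted p = 0.0632), and the others passed whichever column was left out. Pgm2l1 (3.19) and Nom1 (3.09) were called only as listed, from peaks sharing 8 and 11 nt. On the shared interval their differences were 1.10 (adjusted p = 0.107) and -0.40 (adjusted p = 0.623).

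The largest decreases were spread from the start codon to the stop codon. Oga (chromosome 19, 45750255 to 45783644), which encodes the enzyme that removes O-GlcNAc from proteins, stood at 3.69 and 2.94 in preleptotene against 7.80 and 8.10 at the start codon (difference -4.50 ± 0.35 SE, adjusted p = 0.000134). Its peaks shared 16 nt, and on the shared interval the difference was -1.75 (adjusted p = 0.0221). Trim6, a ubiquitin ligase gene, behaved alike, with -3.66 as listed and -2.23 on the shared interval. Larger overlaps lay behind the next genes. Rcan3, a regulator of calcineurin, stood at 2.32 and 2.85 at the stop codon against 5.37 and 6.55 (difference -3.23 ± 0.36 SE, adjusted p = 0.000592). Ptbp3, a splicing regulator of the polypyrimidine tract binding family, stood at 4.14 and 4.63 at the start codon against 7.20 and 7.51 (difference -2.83 ± 0.33 SE, adjusted p = 0.000777). Mrpl15, a mitochondrial ribosomal protein gene whose peaks had identical limits in both tables, stood at 3.39 and 3.14 against 5.95 and 6.86. In each of these the stages lay more than 2 units apart. Myadm (-3.13), a membrane protein gene, Sbk1 (-3.07), a protein kinase gene, and Zfp36l2 (-2.88, and -1.65 on the shared interval), an mRNA decay factor, were also lower by both measures. All 8 passed whichever column was left out. The fits with a column left out used the listed values, so they do not cover the smaller shared-interval differences of Oga, Trim6 and Zfp36l2. Aplp2 (-3.37) and Clptm1 (-3.09) were called only as listed, with -0.11 (adjusted p = 0.917) and -0.81 (adjusted p = 0.269) on the shared interval.

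**Figure D2:**
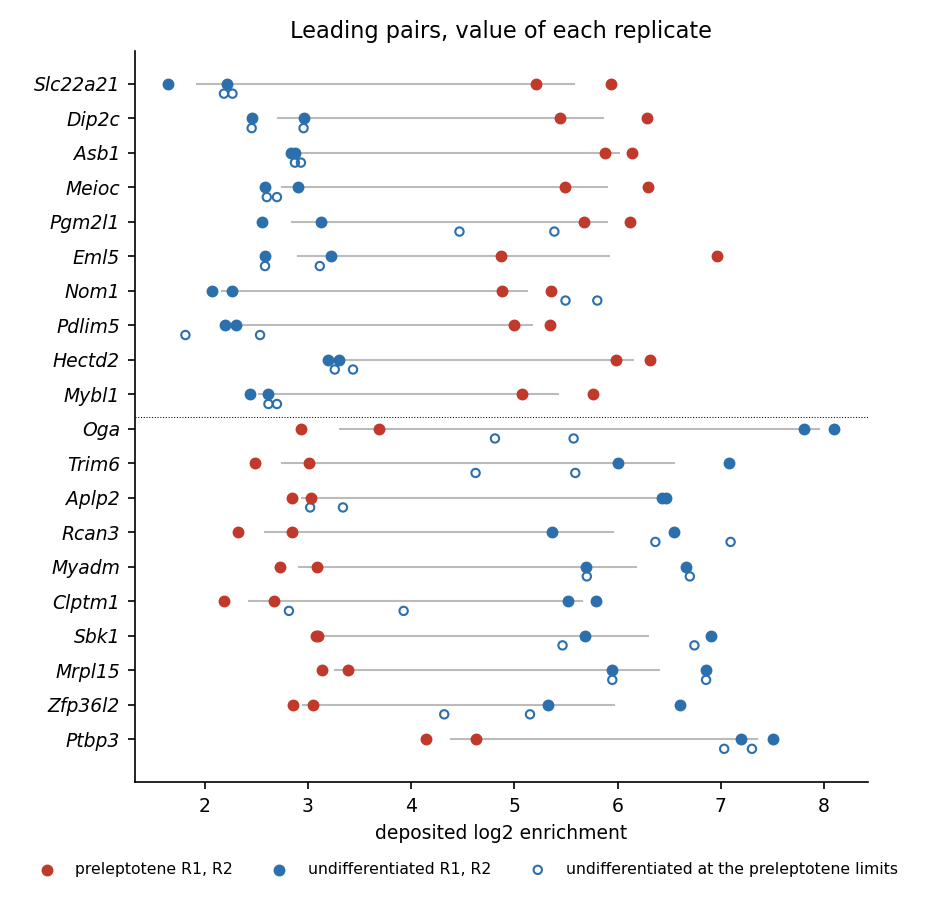
Deposited log2 enrichment (x axis) of the 10 pairs with the highest and the 10 with the lowest differences, 1 row a gene. Red points are the 2 preleptotene replicates, blue points the 2 undifferentiated ones, open circles the undifferentiated values within the preleptotene peak's limits, and the line joins the stage means. In Nom1, Pgm2l1, Aplp2 and Clptm1 the open circles lie nearer to the preleptotene values than the filled blue points do.

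Pairs at start codons tended lower in preleptotene and pairs in the 3′ UTR higher. The 1850 start codon pairs had a median difference of -0.16 and 705 (38.1%) were above 0. Their centred medians were 0.21 (R1) and 0.05 (R2) in preleptotene and 0.35 and 0.27 in undifferentiated spermatogonia, so the replicates of the stages did not overlap. In the pairs as listed 140 (7.57%) were called lower and 60 (3.24%) higher, and by both measures 60 and 35. The 2034 pairs in the 3′ UTR had a median of 0.11 and 1204 (59.2%) were above 0. Their centred medians were -0.03 and 0.06 against -0.17 and -0.05, with 65 (3.20%) called higher and 32 (1.57%) lower. By both measures these were 27 and 17. Pairs in the coding sequence (9935, median -0.02) and at stop codons (1768, median 0.01) had medians near that over all pairs (-0.01). The 625 pairs in the 5′ UTR had a median of -0.04 with the widest spread (SD 0.92), and 46 (7.36%) were called higher and 48 (7.68%) lower. Replicate 1 lay above replicate 2 at 5′ UTRs in both stages, at 0.75 and 0.47 in preleptotene and 0.81 and 0.57 in undifferentiated spermatogonia. Among pairs sharing at least 50% of both peaks, the start codon and 3′ UTR medians were -0.16 and 0.10. The labels used are those of the undifferentiated table, since 4120 preleptotene peaks have a blank label and none is labelled as a start or stop codon. Pairs of a group share libraries and transcripts, and the medians are given with no test.

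**Figure D3:**
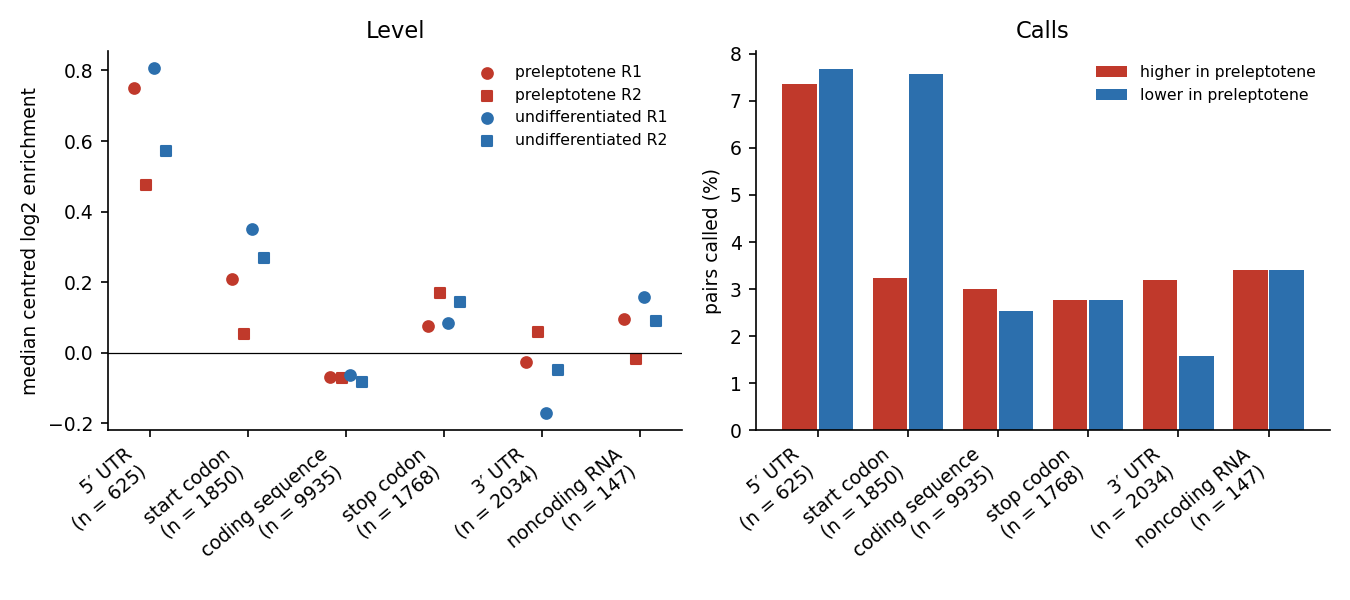
Left, median centred log2 enrichment of the pairs at each location in every column (red preleptotene, blue undifferentiated, circles R1, squares R2). Right, percent of the pairs called higher (red) or lower (blue) in preleptotene as listed, with the number of pairs under each location; the start codon bars are 3.24% and 7.57%.

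Several transcripts were higher at more than 1 peak. Genes with at least 3 different peaks called in the same direction by both measures numbered 6, all higher in preleptotene, a rule set after the values were seen. Bmpr2 (chromosome 1, 59764279 to 59878081), a BMP type II receptor gene, had 5 pairs, all in the coding sequence and all higher, by 1.60 to 2.51. The pair from peaks sharing 1 nt gave 1.80 as listed and 2.71 on the shared interval. Its strongest pair stood at 5.44 and 6.23 against 4.13 and 4.61. Cpeb4 (chromosome 11, 31870104 to 31935635), encoding a protein that binds cytoplasmic polyadenylation elements and regulates translation, had 3 pairs, all higher. The strongest stood at 7.34 and 7.49 in the 5′ UTR against 5.09 and 5.76 (difference 2.13 ± 0.32 SE, adjusted p = 0.00254), and the others gave 1.96 and 1.78. Taok1, a protein kinase gene, had 6 of 11 pairs called (1.53 to 1.97), and Atl3, encoding an atlastin of the endoplasmic reticulum, had all 4 (1.49 to 2.51). Syt14, a synaptotagmin gene, also had all 4 called (1.70 to 2.75, the highest being 1.74 on the shared interval), and Cux1, a homeobox gene, had 3 of 8 (1.73 to 2.05). In Bmpr2, Cpeb4, Atl3 and Syt14 the preleptotene values of every pair lay above the undifferentiated ones. Some pairs of Bmpr2, Taok1 and Syt14 share a peak and are not separate measurements. Called peaks of Cpeb4 (283 to 526 and 527 to 661), Syt14, Taok1 and Bmpr2 also abut and need not be separate sites. With 1 column left out, 2 pairs of Bmpr2 and 1 of Cpeb4 passed each time. The other pairs of Bmpr2 reached adjusted p of 0.115 and 0.299 without undifferentiated R1 and 0.150 without preleptotene R2, and those of Cpeb4 reached 0.0609 and 0.0619 without undifferentiated R1. Over genes with at least 3 one-to-one pairs (1824), 278 had all differences above 0 and 307 all below. Within these genes the SD of the differences was 0.43, and the SD of the gene means was 0.40. Kmt2d, the histone methyltransferase gene with most pairs (26), had a median difference of -0.27, 6 pairs above 0 and none called by both measures.

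**Figure D4:**
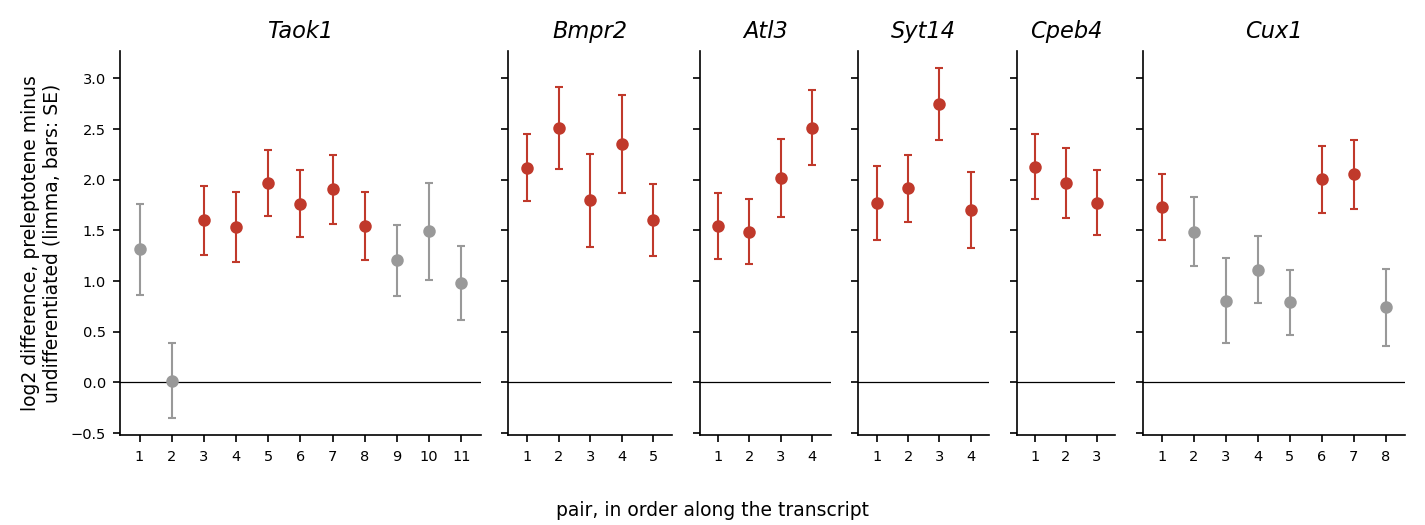
Difference of every pair (y axis, log2, bars are limma's SE) of the 6 genes with at least 3 different peaks called higher by both measures, numbered in order along the transcript (x axis). Red pairs were called by both measures and grey ones were not; every pair lies above 0, with the second pair of Taok1 closest to it at 0.02.

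Of all 9780 genes with a peak at either stage, 692 had peaks in preleptotene only and 2313 in undifferentiated spermatogonia only. These are the counts to set beside each list below. The meiotic entry list (18 genes) had 13 genes with peaks at both stages, 2 in preleptotene only, 1 in undifferentiated spermatogonia only and 2 with none. Its 30 pairs had a median difference of -0.14, with Meioc higher and Dmrt1 and Pcgf6 lower. Over all pairs 1.45% were higher and 1.35% lower by both measures, the shares to set beside the calls of each list below. Dmrt1, a transcription factor gene that keeps spermatogonia from entering meiosis, stood at 6.36 and 5.95 at the start codon against 7.23 and 8.08 (difference -1.37 ± 0.34 SE, adjusted p = 0.0292). Both preleptotene values lay below both undifferentiated ones. Pcgf6, a Polycomb subunit that represses meiotic genes in stem cells, stood at 3.67 and 2.49 against 5.48 and 5.18 (difference -2.11 ± 0.42 SE, adjusted p = 0.0109). Dmrt1 did not pass when any 1 column was left out (adjusted p 0.0617 to 0.184), and Pcgf6 did not pass without preleptotene R2 (0.109) or undifferentiated R1 (0.106). Stra8, the retinoic acid target that drives meiotic entry, had 3.10 and 2.85 against 2.24 and 3.25 (difference 0.37, adjusted p = 0.630). Its replicates overlapped between stages, as did those of Dazl, a germ cell translation factor (5.72 and 5.53 against 4.62 and 6.83). Gsk3b, a kinase gene of Wnt signalling, stood at 8.70 and 7.66 in its 5′ UTR against 8.16 and 8.28 (difference 0.09, adjusted p = 0.942).

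The list of the synaptonemal complex and chromosome axis, the proteins that join homologous chromosomes, had 9 genes with peaks at both stages, 6 in preleptotene only and none in undifferentiated spermatogonia only. Its 23 pairs had a median difference of 0.33, and 17 lay above 0. Tex12, a central element gene, was the only one called, against 1.45% of all pairs called higher by both measures. It stood at 4.72 and 4.06 at the start codon against 2.61 and 3.40 (difference 1.52 ± 0.35 SE, adjusted p = 0.0212). It did not pass without preleptotene R1 (0.153), undifferentiated R1 (0.133) or undifferentiated R2 (0.0686). Sycp1, the transverse filament gene, stood at 6.28 and 5.46 against 5.75 and 5.77 (difference 0.24, adjusted p = 0.798). Sycp3, of the lateral element, stood at 4.84 and 3.88 against 4.80 and 4.95 (difference -0.38, adjusted p = 0.662), and Sycp2 gave 0.81 (adjusted p = 0.415). The replicates of all 3 overlapped between stages. Terb1, Terb2, Majin and Kash5, which tie telomeres to the nuclear envelope and its motors, and the axis genes Hormad1 and Hormad2 were the 6 with peaks in preleptotene only. Terb2 was the strongest of these at 4.44 and 4.91. Its undifferentiated values on that interval were 1.74 and 2.50. Majin stood at 3.38 and 3.09 against 1.91 and 1.82 on its interval, and Hormad2 at 2.71 and 2.93 against 1.59 and 2.51. Hormad2 was not called in limma's fit of all preleptotene peaks (adjusted p = 0.205).

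Of 36 genes of meiotic break formation and recombination, 18 had peaks at both stages, 12 in preleptotene only, none in undifferentiated spermatogonia only and 6 with no peak. The 27 pairs had a median of 0.11, and 2 were higher by both measures, against 1.45% of all pairs. Mei1, needed for programmed DNA breaks, stood at 5.11 and 4.68 at the start codon against 2.99 and 2.45 (difference 2.31 ± 0.39 SE, adjusted p = 0.00429) and passed whichever column was left out. Msh5, of the crossover-promoting MutSγ complex, stood at 4.45 and 4.60 against 3.58 and 2.89 (difference 1.43, adjusted p = 0.0478), and did not pass without preleptotene R1 or R2 (0.136 and 0.194) or undifferentiated R2 (0.316). Its partner Msh4 had a peak in preleptotene only, at 5.34 and 4.63, with 2.09 and 1.07 for undifferentiated spermatogonia on that interval. Spo11, which cuts the DNA (2.94 and 2.36), and Prdm9, which places the cuts (3.63 and 3.16), had peaks in preleptotene only. So did Mei4, needed for the breaks, and Hfm1, a crossover helicase gene. Brip1, a helicase gene, was called only as listed (difference 1.20, adjusted p = 0.0456, and 0.0755 on the shared interval). Dmc1, the meiotic strand exchange gene, was not called (difference 0.52, adjusted p = 0.469).

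Of 18 cohesin genes, 17 had peaks at both stages and Rad21l in preleptotene only. Their 70 pairs had a median difference of 0.11 and a median of gene medians of -0.09. Rad21l stood at 3.61 and 3.07, with 2.58 and 2.42 for undifferentiated spermatogonia on that interval. It was not called in limma's fit of all preleptotene peaks (adjusted p = 0.211). The meiotic subunits Rec8 (-0.19), Stag3 (0.43) and Smc1b (-0.27) had adjusted p of 0.528 to 0.827. Stag1, a mitotic subunit, held the only calls of the list, 1 lower and 1 higher as listed, from peaks that share under 3% of their length. On the shared interval neither was called, with differences of 0.15 and 0.27, so the lower one changed sign. Of 29 DNA damage genes, 27 had peaks at both stages, and their 97 pairs had a median of 0.11. As listed, 3 were called higher and 2 lower, against 6.41% of all pairs in either direction, and none of the 5 was called on the shared interval. Atm, the kinase that responds to DNA breaks, stood at 6.22 and 5.80 at its strongest peak, in the coding sequence, against 4.79 and 5.43 (difference 1.04, adjusted p = 0.0835). The stages did not overlap there, which was the case for 3849 pairs in the higher direction and 4112 in the lower over the whole comparison. Brca2 (-0.70, adjusted p = 0.266) was not called.

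Of 40 genes of undifferentiated spermatogonia, 20 had peaks in undifferentiated spermatogonia only, 13 at both stages, none in preleptotene only and 7 none. Of all 9780 genes with a peak at either stage, 2313 had peaks in undifferentiated spermatogonia only. The GDNF co-receptor gene Gfra1 (5.43 and 6.70), its signalling partner Ret (4.18 and 4.51), and the transcription factor genes Bcl6b (5.90 and 5.52), Lhx1 (5.07 and 4.85), Etv5 (2.65 and 3.49) and Id4 (2.47 and 2.87) were among the 20. The 26 pairs of the list had a median difference of -0.19. Ccnd2 (chromosome 6, 127125162 to 127152188), a D-type cyclin gene, had 2.15 in both preleptotene replicates in the 5′ UTR against 4.70 and 4.92 (difference -2.52 ± 0.32 SE, adjusted p = 0.00124) and passed whichever column was left out. Sall4, a transcription factor gene of germline stem cells, stood at 2.35 and 2.49 against 3.70 and 3.91 (difference -1.25, adjusted p = 0.0368). Its call was lost when any 1 column was left out (0.0942 to 0.198). Zbtb16, whose product keeps the stem cell pool, stood at 3.69 and 3.42 against 3.58 and 4.66 and was not called (difference -0.43, adjusted p = 0.555). Taf4b had 1 pair called lower (-1.49) and 1 higher (1.87) as listed, neither on the shared interval.

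Genes of spermatogonial differentiation and retinoic acid had the lowest median difference of the 16 lists with pairs, -0.28 over 50 pairs. By both measures 4 pairs on 4 genes were lower and 1 higher, against 1.35% and 1.45% of all pairs. Dnmt3a, a de novo DNA methyltransferase gene, stood at 5.39 and 5.26 at the start codon against 6.89 and 7.26 (difference -1.61 ± 0.32 SE, adjusted p = 0.0106), and Dnmt3b at 2.86 and 2.50 against 4.52 and 4.25 (difference -1.57 ± 0.36 SE, adjusted p = 0.0212). Ccna2, the cyclin of S phase and mitosis, stood at 6.43 and 4.52 against 7.82 and 7.86 (difference -2.24 ± 0.50 SE, adjusted p = 0.0189), and Dmrt1 completes the 4. Rdh10, which makes retinaldehyde, the precursor of retinoic acid, was the gene that was higher, with 6.45 and 5.70 against 4.44 and 4.12 (difference 1.94 ± 0.39 SE, adjusted p = 0.0106). None of the 5 passed whichever column was left out. Dnmt3a and Ccna2 passed only without preleptotene R1 (otherwise 0.0503 to 0.0732 and 0.0617 to 0.146), and Dnmt3b only without undifferentiated R2 (otherwise 0.0546 to 0.177). Rdh10 did not pass without preleptotene R1 (0.0890) or undifferentiated R2 (0.0963), and Dmrt1 as given above. Kit, the receptor gene of differentiating spermatogonia, stood at 5.79 and 5.17 against 4.71 and 4.30 and was not called (difference 1.11, adjusted p = 0.114). The retinoic acid receptor gene Rarg gave -0.38 (adjusted p = 0.671).

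Of 57 genes of GDNF, FGF and niche signalling, 32 had peaks at both stages, 14 in undifferentiated spermatogonia only and 3 in preleptotene only, and the 97 pairs had a median of 0.01. Called higher by both measures were 9 of the 97 pairs, against 1.45% of all pairs, among them 5 on Bmpr2 and 3 on the TGF-beta type I receptor gene Tgfbr1. Several of the 9 share a peak and are not separate measurements. The Tgfbr1 pairs, at the stop codon and in the 3′ UTR, were higher by 1.53, 1.59 and 2.39. The 2.39 came from peaks sharing 1 nt, and its preleptotene peak is that of the pair at 1.59, with 1.58 on the shared interval for both. Lower were Fgfr1, an FGF receptor gene, at 3.13 and 2.23 in the 5′ UTR against 5.22 and 5.00 (difference -2.29 ± 0.39 SE, adjusted p = 0.00475), and Pik3r1, a PI3 kinase subunit (-1.47). Fgfr1 did not pass without preleptotene R2 (0.0531) or undifferentiated R1 (0.0541). Pik3r1 did not pass when any 1 column was left out (0.0502 to 0.154). Of the Tgfbr1 pairs, only the one sharing 1 nt passed whichever column was left out, and the others reached 0.218 (without undifferentiated R1) and 0.104 (without preleptotene R2). The pass of the Tgfbr1 pair sharing 1 nt rests on listed values of peaks that cover different stretches, and does not cover its 1.58 on the shared interval. The feedback inhibitor genes Spry1, Spry2, Spry4, Dusp6 and Smad7 had peaks in undifferentiated spermatogonia only, Spry4 at 5.39 and 5.28. Csf1r and Kitl, also in that group, are markers of macrophages and Sertoli cells.

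Of 34 genes of the DAZ, Nanos and translational regulator list, 24 had peaks at both stages, with 74 pairs and a median of 0.13. Beside Cpeb4, Cnot6, a deadenylase gene, was higher (1.48), with adjusted p between 0.0680 and 0.0900 when 1 column was left out. Cpeb2 and Cpeb3, of the same family as Cpeb4, had peaks in preleptotene only. Cpeb2 stood at 6.02 and 6.00, with 1.42 and 1.74 for undifferentiated spermatogonia on that interval. Zfp36l2 had 3 of 4 pairs called lower as listed, 2 of them by both measures from the same undifferentiated peak. Lin28a, an RNA-binding pluripotency gene, had peaks in undifferentiated spermatogonia only (3.80 and 3.91). Of 70 cyclin, Cdk and replication genes, 51 had peaks at both stages, with 89 pairs and a median of -0.11. Ccne2, the cyclin of the G1 to S transition, was higher at 4.90 and 4.62 against 2.26 and 2.74 (difference 2.39 ± 0.32 SE, adjusted p = 0.00180) and passed whichever column was left out. Ccnd2 and Ccna2 (above) and Cdc25c, a phosphatase gene of mitotic entry (-1.74), were lower. Cdc25c did not pass without preleptotene R1 (0.0892) or undifferentiated R2 (0.104), and Ccna2 as given above.

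Of 85 chromatin genes, 79 were in both tables, with a median of -0.07 over 385 pairs. Lower by both measures were 9 of them, against 1.35% of all pairs, on Cbx2, Cbx7, Dnmt3a, Dnmt3b, Kmt2a and Pcgf6. Cbx7, a Polycomb chromobox gene, had 3 pairs, lower by 1.66 to 2.06 in size. The pairs in the 3′ UTR share their undifferentiated peak and are not separate measurements. The one at the stop codon stood at 3.17 and 3.44 against 5.23 and 4.98. Cbx2, of the same family, had 2 pairs lower by both measures, at 4.10 and 3.92 against 6.37 and 6.44 for the larger (difference -2.26 ± 0.33 SE, adjusted p = 0.00236). Each of the 2 genes had 1 pair that passed whichever column was left out. Kmt2a, a histone methyltransferase gene with 1 pair lower by both measures (-1.42), did not pass when any 1 column was left out (0.0617 to 0.133). Higher by both measures were 3 of the 385 pairs, against 1.45% of all pairs. Brdt, the testis bromodomain gene, was higher at 4.08 and 3.82 against 2.25 and 2.58 (difference 1.67 ± 0.32 SE, adjusted p = 0.00920), as were Nsd2 (1.47), a histone methyltransferase gene, and Kdm6a (1.33), a histone demethylase gene. Brdt did not pass without preleptotene R1 or undifferentiated R2 (0.0641 at most). Nsd2 passed only without preleptotene R1 (otherwise 0.0591 to 0.169), Kdm6a under no such setting (0.0583 to 0.276). Suz12, a core Polycomb subunit with a peak at the stop codon of 7.19 and 6.82 against 6.98 and 7.57, was not called (difference -0.13, adjusted p = 0.891).

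The m6A machinery was itself marked at both stages, with 26 of 30 genes in both tables and a median of -0.10 over 72 pairs. Only Elavl1, an RNA-stabilising protein gene, was called by both measures, at 3.14 and 3.37 against 1.69 and 2.51 (difference 1.29, adjusted p = 0.0338, and 0.0870 to 0.188 with 1 column left out). Alkbh5, the demethylase gene, stood at 7.96 and 6.90 at the start codon against 7.06 and 8.52 (difference -0.22, adjusted p = 0.857). Mettl14 (-0.87, adjusted p = 0.217), Mettl3 (-0.13, adjusted p = 0.894) and Ythdf2 (-0.69, adjusted p = 0.250) were not called. Ythdc2, the reader that acts with Meioc, had 6 peaks in preleptotene and none in undifferentiated spermatogonia. Its strongest stood at 3.84 and 2.72, with 1.11 and 1.12 for undifferentiated spermatogonia on that interval. Of 37 piRNA pathway and germ granule genes, 25 had peaks at both stages, with 65 pairs, a median of -0.12 and only Mybl1 called by both measures. Piwil4, the Piwi protein of fetal germ cells, had a peak in undifferentiated spermatogonia only (3.99 and 5.04). Of 40 spermiogenesis genes, 35 had no peak in either table, and the differences of the 10 pairs on the other 5 ran from -0.64 to 1.01.

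**Figure D5:**
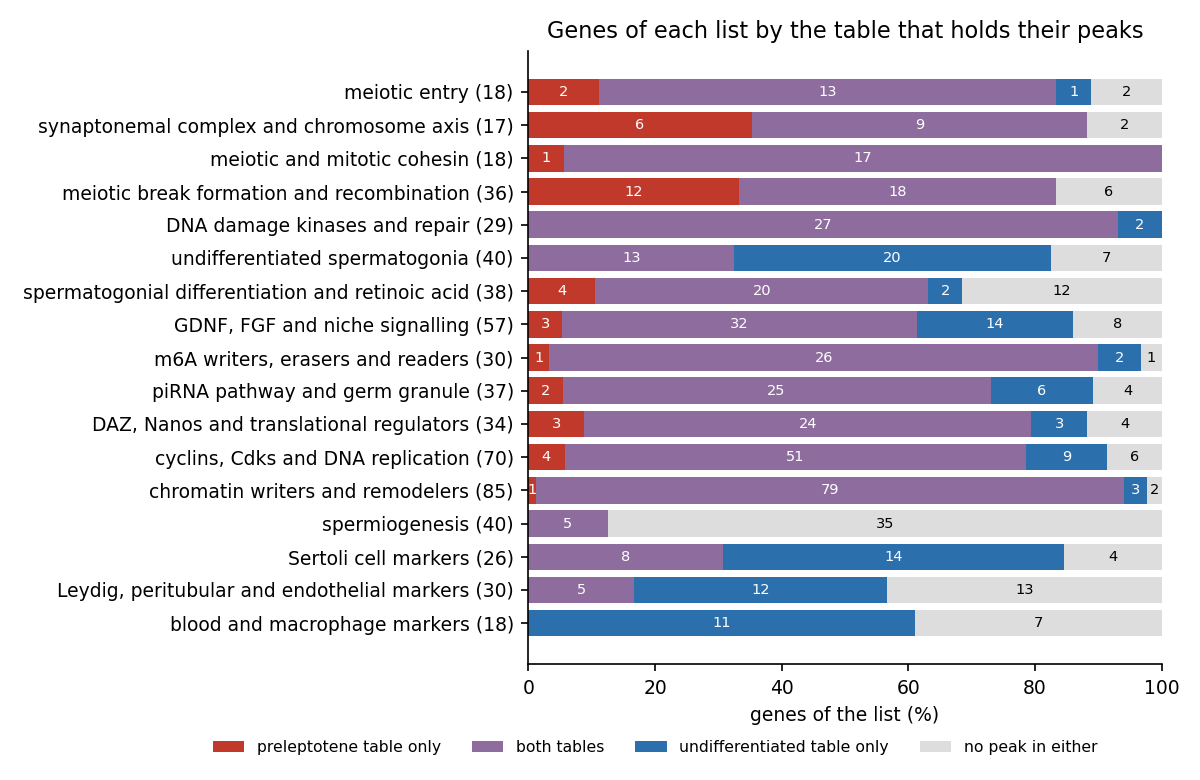
Genes of each list (number in brackets) as percent of the list (x axis) by the table that holds their peaks, with the number of genes in each part. The synaptonemal complex and recombination lists have 6 and 12 genes with peaks in preleptotene only, and the undifferentiated spermatogonia and somatic marker lists have 20, 14, 12 and 11 in undifferentiated spermatogonia only.

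Over all genes, 6775 had peaks in both tables, 692 in preleptotene only and 2313 in undifferentiated spermatogonia only, and 113 of the 6775 had no pair. Each stage has a single peak list, so these counts carry no replicate error, and transcript levels were not analysed here. A gene without a listed peak is not shown to lack m6A. The strongest peak of a gene was weaker in genes of one table. Its median was 2.77 for preleptotene only and 2.99 for undifferentiated only, against 3.44 and 3.71 for genes in both. Of the 692, 437 had a single peak, as had 1329 of the 2313. A strongest value taken over fewer peaks tends to be lower, so these medians do not show that single peaks were weaker. Of the 692 genes, 39.0% also had a peak, at any position, in pachytene/diplotene spermatocytes and 31.8% in type A1 spermatogonia, and 262 were in no other table. Of the 2313, 23.3% and 38.1% had one there, and 1045 were in no other table. Of the genes in both, 68.9% and 86.6% had one. Whether the same sites were marked was not compared.

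The strongest genes in preleptotene only were Stradb, a pseudokinase gene of the LKB1 pathway (6.49 and 5.95), Cpeb2, Ago4, an Argonaute gene (5.43 and 5.48), Gabre, a GABA receptor subunit gene (5.46 and 5.37), and Smpd3, a sphingomyelinase gene (5.07 and 5.27). BC051142, Tbc1d8b, Orc6, Nova1 and Msh4 followed at means of 5.07 to 4.99. The undifferentiated values on the same intervals ranged widely. BC051142 had 0.66 and 0.61 there, and Stradb 2.00 and 2.74. Orc6, a subunit of the replication origin complex, had 4.58 and 4.48 against 5.42 and 4.65 in preleptotene, so that its listing in one table alone is no sign of a difference in enrichment. Over the 1105 peaks on the 692 genes, the median was 2.68 in preleptotene and 1.63 in undifferentiated spermatogonia on the same intervals. At 653 of them (59.1%) the undifferentiated value was at or above that of the weakest listed undifferentiated peak. Over all 18706 preleptotene peaks with values, 1002 (5.36%) were called higher and 458 (2.45%) lower. On the 692 genes, 410 of 1067 peaks were called higher, but their listing used the same preleptotene values, so the count is a description.

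The strongest genes in undifferentiated spermatogonia only were Plagl1, an imprinted zinc finger gene (7.35 and 7.65), and Pmaip1, a pro-apoptotic BH3 gene (7.19 and 7.57). Ptprg, a receptor phosphatase gene, Marcks, a protein kinase C substrate, Gfra1 and Rbms1, an RNA-binding protein gene, followed at means of 6.54 to 5.98, then Rragd, Fth1, Nab1 and Fosl2 at 5.87 to 5.78. In all 10 both replicates exceeded 5. Fosl2, an AP-1 factor gene, had 8 peaks, the most of the 10. Sox9 (4.95 and 5.65), Kitl (4.68 and 5.36) and C1qc (5.47 and 4.56), markers of Sertoli cells and macrophages, reached similar levels in the same table. The undifferentiated peaks also carry a deposited ratio, whose comparison stage no header names and which was not used here. No preleptotene value is therefore given for undifferentiated peaks without a partner. Peaks without a partner were most frequent at 5′ UTRs, where 51.0% of undifferentiated peaks were paired, and least at stop codons, where 73.6% were.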

How the data were processed

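m6A immunoprecipitated and input libraries of preleptotene spermatocytes and undifferentiated spermatogonia were used, 2 of each per stage, grouped by their labels. The submitters' processing notes name TopHat2 2.0.14 and mm10. No label or header names the caller, its threshold or any scaling. The authors deposited 1 peak table per stage with a log2 enrichment over input and a log2 ratio per replicate, and a table of read counts and percent mapped per library. Reads under single peaks were not analysed here, so precision comes only from the 2 replicates. That the preleptotene ratio is against undifferentiated spermatogonia was read from the values: enrichment minus ratio matched the listed undifferentiated enrichment at r of 0.987 and 0.988 over pairs sharing 50% of both peaks.

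Symbols were updated through RefSeq (GRCm38.p6). Pairs with an exact 0 were to be left out (0 pairs, and 43 preleptotene peaks in the fit of all preleptotene peaks). Columns were centred on their medians and fitted with limma 3.58.1 (R 4.3.3; lmFit, eBayes, no replicate block, two-sided, Benjamini-Hochberg, threshold 0.05), checked on simulated data; tables were handled with pandas 2.3.3. Named are 32 chosen genes, the 10 highest and lowest called differences, the 10 strongest genes of each table alone, up to 4 paired members and 3 one-table members per list with the highest enrichment, and the 5 genes with most pairs. Other called list members and the 5′ end genes were named after their values were seen, and not every gene the rule gives is described. The members and lists were chosen with earlier results of these data known. Alternatives are in the closing section. Some items withheld from the text are not reported here.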

Additional observations from a re-analysis of the deposited data

How the results depend on the processing

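The count of called pairs (1049) stayed within 1.5 times without centring (913), with quantile normalization (995), with columns scaled to 1 SD (968), with limma's trend and robust options (948) and for pairs with a mean enrichment of at least 2 (1073). It was 415 of 13484 pairs sharing at least 50% of both peaks, 496 of 14051 one-to-one pairs and 533 of 16359 with both stages measured within the preleptotene peak. Leaving out 1 of the 4 columns gave 362 to 513, the lone column being assumed to vary like the others. With a replicate block 1866 pairs were called. The replicate numbers are not treated as pairing: there are only 2, the labels tie them to nothing, and the deviations of same-numbered samples correlated across pairs at r = 0.133. For all preleptotene peaks the count was 1460, with 2509 under the replicate block and 626 to 1411 with 1 column left out. Genes with peaks in preleptotene only numbered 692, and 1039 when both tables were cut to equal numbers of their strongest peaks. On the shared interval the Nom1 pair, whose peaks share 11 nt, reversed to -0.40, and the lower Stag1 pair to 0.15. The median of the cohesin list was 0.11 over pairs and -0.09 over gene medians, that of the niche signalling list 0.01 and -0.02, and that of the Leydig, peritubular and endothelial list 0.08 and -0.06. Keeping exact zeros was not run for pairs, since none held one.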
